A study of Homo sapiens with 4 samples.

Results

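The 32 genes described here encode the enzymes that turn glucose into lactate and the carriers that bring glucose in and lactate out, together with a subunit and a kinase of pyruvate dehydrogenase. They were taken by symbol from the 44591 rows of each gene table, of which 19233 were annotated as protein-coding, and all 32 were found. RNA-seq had been performed in 4 replicates of untreated HaCaT, a spontaneously immortalized line of human epidermal keratinocytes, grown with 12% fetal bovine serum according to the labels. The study's methods state a lower serum share for this line, and the label value is used here. There was 1 cell line and 1 condition, with no treated or control group, so genes were compared with each other within each replicate. The study calls the samples biological repeats, and the labels do not say that they came from separate cultures, so the spread given here may be technical.

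Glycolysis splits glucose in the cytosol through a fixed chain of reactions, and most of its steps can be carried out by several isoenzymes encoded by separate genes. The isoenzymes differ in tissue, in kinetics and in how they are regulated. Pyruvate, the end product, is either reduced to lactate by lactate dehydrogenase and exported with a proton by monocarboxylate transporters, or enters the mitochondrion and is oxidized by pyruvate dehydrogenase. Epidermis lacks its own blood vessels, and keratinocytes are known to release much of their glucose carbon as lactate. Levels are given as TPM, the count per base of gene length scaled to 1000000 over the protein-coding rows of a library, so that levels of different genes can be compared. In cultures measured in bulk, fewer cells expressing a gene and less RNA per cell cannot be told apart.

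Total counts were 73082279 in replicate 1 and 17056035 to 19745170 in the other replicates. Replicate 1 stood apart from the others. Protein-coding rows held 76.1% of its counts and 95.3% to 96.4% of the others', and over the 12165 protein-coding genes with a mean TPM above 1 its Spearman correlation with the other libraries was 0.754 to 0.780, against 0.944 to 0.967 among replicates 2 to 4. Over the 28 members above that level the correlations were 0.943 to 0.963 for replicate 1 and 0.977 to 0.987 among the others. A rank correlation also depends on how widely the levels of a gene set are spread, so these need not mean closer agreement. These correlations are across genes, which are not independent replicates. All 5 keratinocyte markers examined were detected, with KRT14 at 6375 to 7642 TPM. The summed level of the markers was 0.162 to 0.691 TPM for 5 skeletal muscle genes, 0.0418 to 0.199 TPM for 4 neuronal genes, 0 to 0.977 TPM for 3 liver genes and 0 to 0.533 TPM for 4 germ cell genes, and none of these 16 markers was detected. Of the other lists, 2 of 5 fibroblast genes (COL1A1 and LUM), 1 of 3 immune genes (CD68), 1 of 4 melanocyte genes (PMEL), 0 of 3 endothelial genes and 0 of 4 erythroid genes were detected, at summed levels of 5.12 to 9.01, 8.31 to 43.9, 1.36 to 3.52, 0.859 to 2.36 and 0.104 to 0.916 TPM.

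The pathway was expressed at high levels. A mean TPM above 1, the level called detected here, was reached by 28 of 32 members, and 63.3% of all protein-coding genes reached it. A mean TPM above 100 was reached by 13 of 32 members and by 9.03% of all protein-coding genes. The median of the members' mean TPM was 72.5, against 7.21 over all protein-coding genes. Together the members took 1.17%, 1.59%, 1.61% and 1.30% of protein-coding TPM in replicates 1 to 4. GAPDH and PKM alone made up 49.6% ± 4.07 (SD, n = 4) of that sum. The 4 members that were not detected were HK3, PFKFB1, PKLR and LDHC, known as forms of blood cells, of liver and muscle, of liver and red blood cells, and of testis, in that order.

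**Figure D1:**
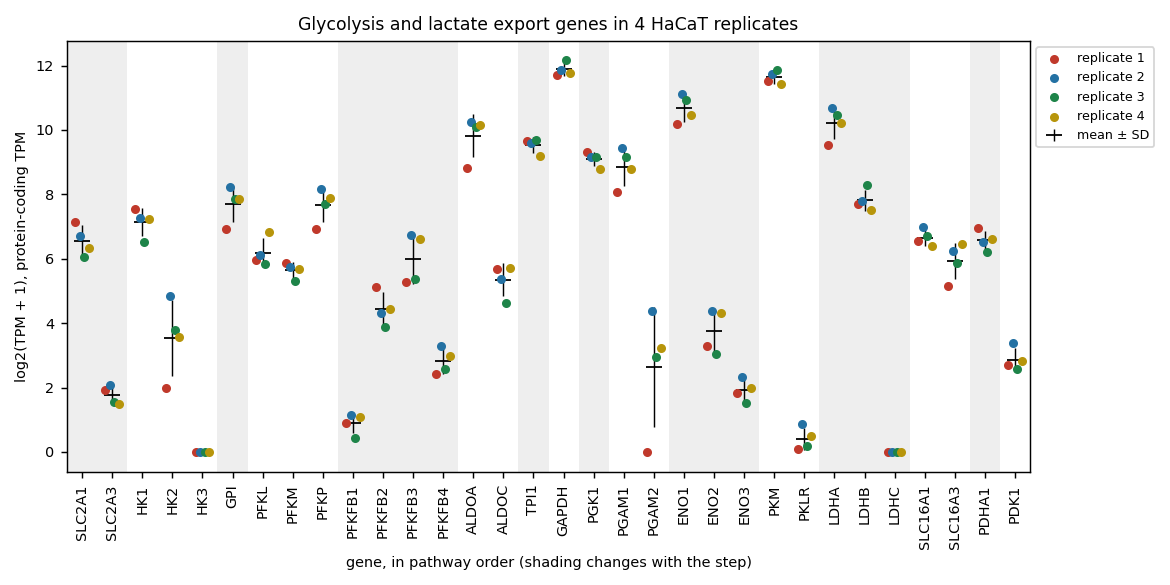
Level of each of the 32 genes as log2(TPM + 1) on a linear axis, in pathway order, with a point for each of the 4 replicates and the mean ± SD in black. GAPDH and PKM sit at the top in every replicate, HK3 and LDHC at 0, and the red points of replicate 1 lie apart from the others for HK2, ALDOA and PGAM2.

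The summed level differed between the steps of the pathway. Glucose uptake (SLC2A1 and SLC2A3) summed to 100.2 ± 33.7 TPM (SD, n = 4), hexokinase to 159 ± 38.4, and phosphofructokinase to 336 ± 81.2. Several middle and late steps stood higher, with aldolase at 1009 ± 343, enolase at 1703 ± 480 and pyruvate kinase at 3198 ± 443 TPM. The levels did not rise evenly along the pathway. Phosphoglycerate kinase at 552 ± 80.5 and phosphoglycerate mutase at 501 ± 190 TPM lay on average below aldolase and triosephosphate isomerase, the latter at 748 ± 114 TPM. Lactate dehydrogenase summed to 1475 ± 409 TPM, and lactate export by SLC16A1 and SLC16A3 to 164 ± 30.4 TPM. The enzymes from GAPDH to pyruvate kinase summed to 3.99 ± 0.571 times the level of those from hexokinase to triosephosphate isomerase, and this ratio lay between 3.37 and 4.51 in the 4 replicates. Most of the larger sum came from GAPDH, at 3792 ± 545 TPM, and pyruvate kinase. These sums are of transcripts and say nothing of enzyme amount or flux.

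**Figure D2:**
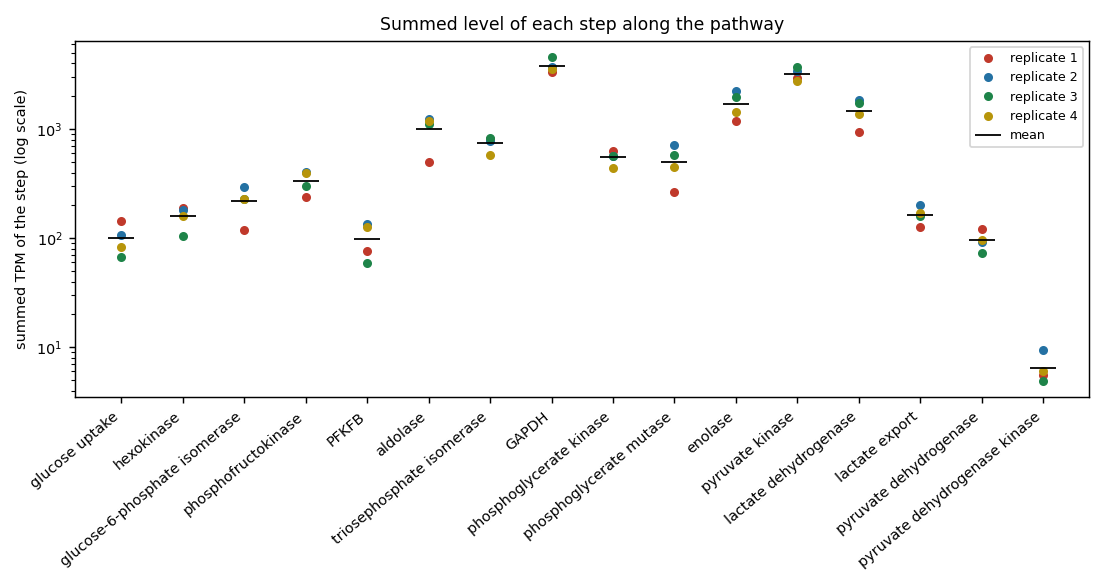
Summed TPM of the isoenzymes of each step, on a log axis, in pathway order, with a point per replicate and a bar at the mean. The GAPDH and pyruvate kinase steps are the highest. The means of glucose uptake, PFKFB and pyruvate dehydrogenase lie near 100 TPM, that of lactate export is 164 TPM, and pyruvate dehydrogenase kinase 1 is the lowest at 6.50 TPM.

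Isoenzymes of the same step were compared in 10 steps, as 23 pairs of genes. In 9 of 10 steps the same isoenzyme was the highest in all 4 replicates, and 22 of 23 pairs kept their order in all 4. The exact two-sided sign-flip permutation test of each of those 22 differences gave p = 0.125 and an adjusted p of 0.131 over the 23 pairs. With 4 replicates 0.125 is the smallest p the test can give, so no pair could pass 0.05. The remaining pair was SLC16A1 and SLC16A3, with p = 0.25 by the same exact test. Of the 15 pairs in which both genes were detected, 14 kept their order.

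**Figure D3:**
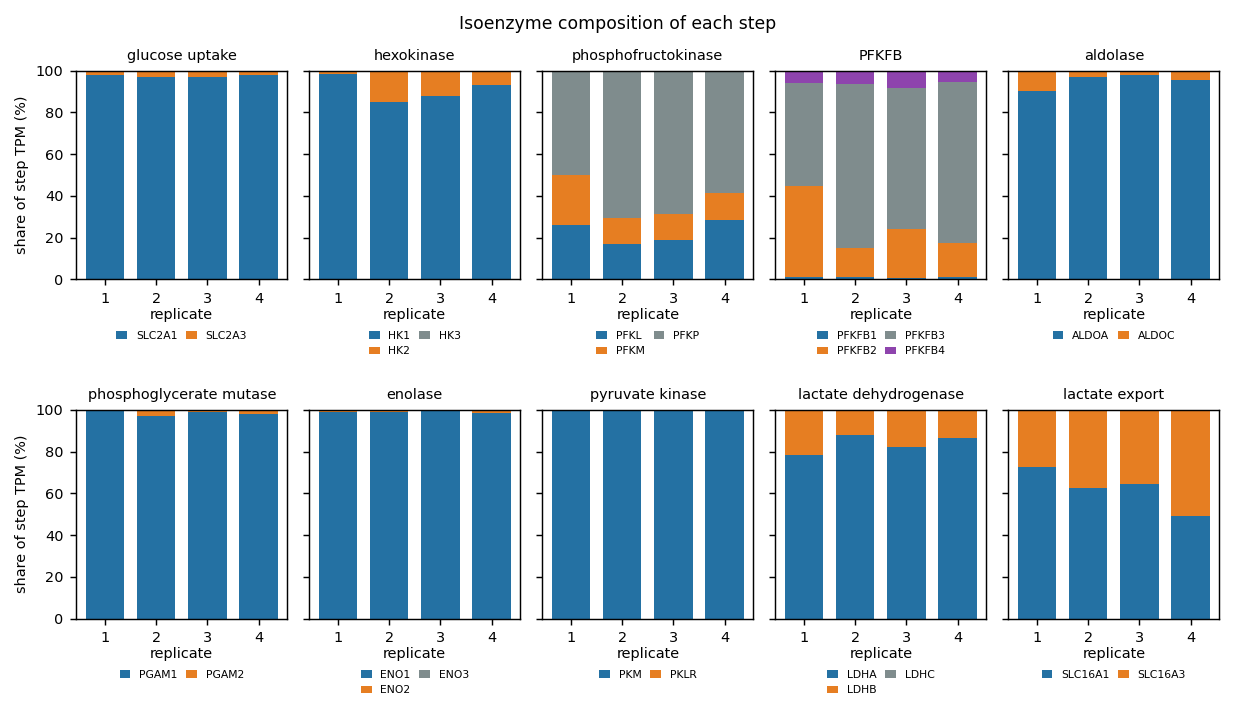
Share of each isoenzyme in the summed TPM of its step, in percent, as stacked bars from 0 to 100 for replicates 1 to 4. A single gene fills over 90% of the bar on average in glucose uptake, hexokinase, aldolase, phosphoglycerate mutase, enolase and pyruvate kinase, while phosphofructokinase, PFKFB and lactate export are split between several genes.

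Promoter windows of the members were also read for 1 short sequence. The letters ACGTG are 1 form of the core that the hypoxia-inducible factors recognize, and other forms were not searched. They were searched on both strands, so that CACGT also counts. The palindromic E-box CACGTG, which other factors also bind, counts on both. RefSeq windows on GRCh38.p14 from 250 bases before to 50 after a start were given for 29 of 32 members, not for SLC2A3, PFKFB2 and SLC16A1. The letters occurred in 34.5% of the members' 58 windows and in 21.4% of all 35116 windows, and in at least 1 window of 16 of 29 members (55.2%) and of 24.9% of all 27305 genes with a window. The shares per gene are not on equal terms, since the members had more windows per gene. Overlapping windows can also count 1 site more than once, as for PFKM. Whether the members differ from other genes in these letters was not tested. Stretches around a match, with the searched letters in capitals, are shown as examples for HK2, PFKFB3, ALDOA, GAPDH, PGK1, LDHA and SLC16A3.
HK2 chr2:74834964-74834992 plus strand: gattgctgcgccCACGTgggagggagccc
PFKFB3 chr10:6202812-6202840 plus strand: caccctcctcccCACGTggaagggggctg
ALDOA chr16:30064373-30064401 plus strand: tggcagggaggcCACGTgatccgagtccc
GAPDH chr12:6535171-6535199 plus strand: gctctgcggggtCACGTgtcgcagaggag
PGK1 chrX:78104053-78104081 plus strand: aaacggaagccgCACGTctcactagtacc
LDHA chr11:18394464-18394492 plus strand: cagcccgactcaCACGTgggttcccgcac
SLC16A3 chr17:82228975-82229003 plus strand: cgtgcgcgggggACGTGccgcgccagcga
LDHA had 5 matches in 1 window, counting an E-box on both strands, and HK2 had 6 in 2 windows. The letters were also found for the low ENO2 and for PKLR and LDHC, which were not detected. The windows of the other 13 members, SLC2A1, HK1, HK3, PFKL, PFKFB1, PFKFB4, PGAM1, PGAM2, ENO1, ENO3, PKM, LDHB and PDHA1, held none, which says only that these letters are not in those windows. A match is a description of the sequence, and no relation between matches and levels was tested.

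Glucose enters through facilitative carriers of the SLC2A family. SLC2A1 (hg19 chr1:43391046-43424847, minus strand) encodes GLUT1, the carrier of basal uptake in most proliferating cells. Its level was 142, 103, 65.5 and 80.4 TPM in replicates 1 to 4. SLC2A3 (chr12:8071824-8088892), which encodes the neuronal high-affinity carrier GLUT3, was at 2.79, 3.21, 1.95 and 1.81 TPM. The groups of values did not overlap, and SLC2A1 held 97.5% ± 0.525 of the sum, a mean difference of 4.80 ± 0.32 in log2(TPM + 1). Reads of SLC2A3 can be shared, since 24.2% of the 50-base stretches of its transcript also occur in transcripts of other genes, SLC2A14 and SLC2A3 pseudogenes among them. Most stretches were shared with SLC2A14, SLC2A3P4 and SLC2A3P2. SLC2A14 was counted at 1, 0, 0 and 1 reads, SLC2A3P4 at 15, 8, 6 and 4, and SLC2A3P2 at 3, 0, 0 and 0. The pseudogene row SLC2A3P1, not among those genes, was counted at 1328, 238, 87 and 342 reads, more than SLC2A3 itself at 267, 84, 69 and 53. Adding the pseudogene counts, most of them from SLC2A3P1, lowered the SLC2A1 share to 89.4%.

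Hexokinase phosphorylates glucose and so traps it in the cell. HK1 (chr10:71029756-71161638, plus strand), the widely expressed form, was at 186, 155, 91.4 and 148 TPM. HK2 (chr2:75059782-75120481, plus strand), the form of insulin-responsive tissues that is often raised in tumour cells, was at 2.96, 27.7, 12.9 and 10.8 TPM. HK1 was above HK2 in every replicate, but the distance between them was not constant. The ratio of HK1 to HK2 reads per kilobase was 62.7 (95% Clopper-Pearson interval 57.4 to 68.5), 5.58 (5.25 to 5.94), 7.11 (6.59 to 7.68) and 13.7 (12.5 to 14.9) in the order of the replicates. No 2 of these intervals overlapped, so the replicates differed by more than counting error. The mean difference of 3.60 ± 1.41 in log2(TPM + 1) became 2.94 ± 0.63 without replicate 1. Over all 4 replicates HK2 had the widest range of the detected members counted in every replicate, 9.34-fold, while over replicates 2 to 4 its range of 2.55-fold was below the 2.73-fold of ENO2 and the 2.61-fold of PFKFB3. HK3 had no count in any replicate, where 3 counts would correspond to 0.0402 to 0.147 TPM, and HK1 was at least 840.4-fold above that floor per library.

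Glucose-6-phosphate isomerase, which turns glucose-6-phosphate into fructose-6-phosphate, has a single gene. GPI ranged from 119.7 TPM in replicate 1 to 297 in replicate 2, with a mean of 219 ± 73.5.

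Phosphofructokinase commits the sugar to glycolysis and works as a tetramer whose subunits come from 3 genes. PFKP (chr10:3109712-3178997, plus strand), the platelet-type subunit, was at 119.6, 287, 206 and 234 TPM. PFKL (chr21:45719917-45747264, plus strand), the liver-type subunit, was at 62.0, 68.0, 55.9 and 114 TPM. PFKM (chr12:48499656-48540187, plus strand), the muscle-type subunit, was at 56.9, 52.6, 38.2 and 50.3 TPM. All 3 were detected, in the order PFKP, PFKL, PFKM in each replicate. PFKP held 62.0% ± 9.42 of the sum, PFKL 22.4% ± 5.70 and PFKM 15.5% ± 5.56. PFKL and PFKM were the closest neighbours, 0.55 ± 0.44 apart in log2(TPM + 1), and in replicate 1 their ratio per kilobase was 1.09 (1.05 to 1.13). Their order depended on gene length. The difference was 0.10 with the union of annotated exons as length (exact permutation p = 0.75), 0.39 without length correction (exact permutation p = 0.25) and 1.19 with the exons of protein-coding transcripts, and in the first 2 settings the order was not the same in all 4 replicates. PFKL exceeded PFKM most in replicate 4, by 2.26-fold (2.12 to 2.41). PFKM in turn lay closer to PFKP in replicate 1, at a ratio of 0.476, than in replicates 2 to 4, at 0.183 to 0.214.

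The PFKFB genes encode bifunctional enzymes that make and remove fructose-2,6-bisphosphate, the activator of phosphofructokinase. PFKFB3 (chr10:6186841-6277508, plus strand), the inducible form with the strongest kinase activity, was at 38, 105, 40.2 and 97.7 TPM. PFKFB2 (chr1:207226620-207254368, plus strand), the cardiac form, was at 33.7, 18.8, 13.8 and 20.9 TPM. PFKFB4 was at 4.40, 8.75, 4.95 and 6.84 TPM, and PFKFB1, the liver and muscle form, at 0.873, 1.20, 0.354 and 1.14 TPM. PFKFB3 was the highest of the 4 in each replicate, but in replicate 1 by little. There it held 49.4% of the sum and PFKFB2 43.8%, at a PFKFB2 to PFKFB3 ratio of 0.887 (0.855 to 0.920), whereas in replicates 2, 3 and 4 PFKFB3 held 78.5%, 67.8% and 77.2%. The difference between PFKFB2 and PFKFB3 was -1.56 ± 1.01 in log2(TPM + 1) over 4 replicates and -2.02 ± 0.49 over replicates 2 to 4. The lead of PFKFB3 in replicate 1 rested on the length correction, since PFKFB2 had 7492 reads there over a deposited length of 9143 bases and PFKFB3 had 4628 over 5008.

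**Figure D4:**
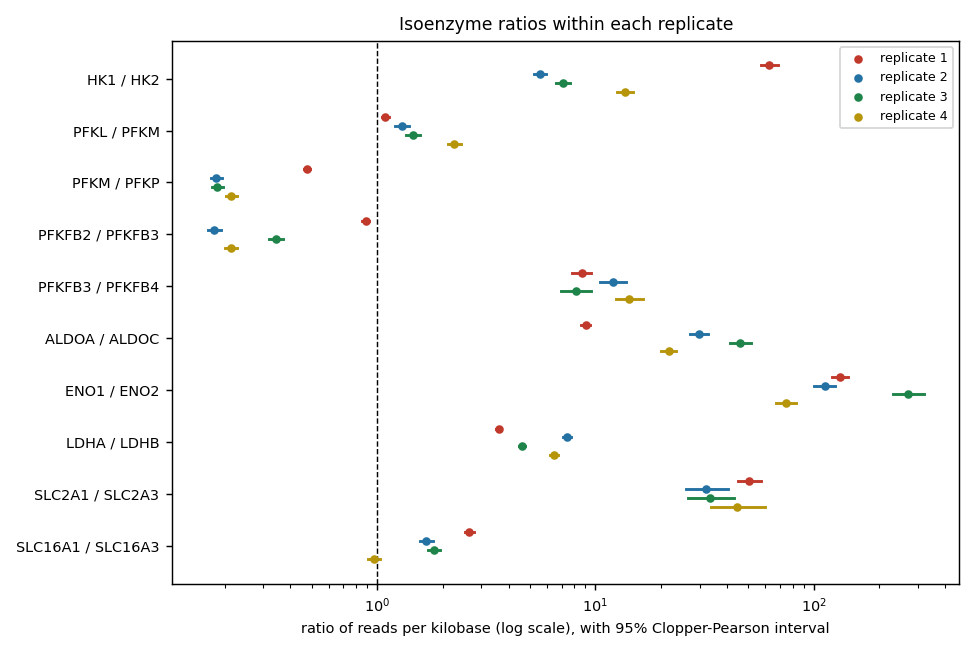
Ratio of reads per kilobase between isoenzymes within each replicate, on a log axis, with 95% Clopper-Pearson intervals that cover counting error only; the dashed line marks equal levels. The 4 replicates spread far beyond their intervals for HK1 / HK2, from 5.58 to 62.7, and SLC16A1 / SLC16A3 reaches the line in replicate 4.

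Aldolase splits the 6-carbon sugar. ALDOA (chr16:30064411-30081741, plus strand), the muscle and housekeeping form, was at 452, 1209.6, 1083 and 1127 TPM. ALDOC (chr17:26900133-26903951, minus strand), the brain form, was at 50.1, 40.5, 23.5 and 52.0 TPM. ALDOA was far above ALDOC in every replicate and held 95.1% ± 3.49 of the sum. Their ratio per kilobase was 9.01 (8.62 to 9.43) in replicate 1 and 29.9, 46.2 and 21.7 in replicates 2, 3 and 4, and no 2 intervals overlapped. Most of the ALDOA transcript, 88.1% of its 50-base stretches, also occurs in transcripts annotated to AC093512.2 or ALDOAP2, so the ALDOA level depends on how such reads were assigned.

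Triosephosphate isomerase and phosphoglycerate kinase have 1 ubiquitous gene each among the members. TPI1 ranged from 580.2 to 825 TPM and PGK1, which makes the first ATP gained in glycolysis, from 441 to 632 TPM. Both were lowest in replicate 4.

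GAPDH oxidizes glyceraldehyde-3-phosphate, and its transcript was also the reference of the study's RT-qPCR. GAPDH (chr12:6643571-6647541, plus strand) was at 3372, 3684, 4586 and 3523 TPM, rank 20 of the 19233 protein-coding genes by mean TPM. Its highest value was 1.36 times its lowest, among the narrowest ranges of the members, beside 1.35 for PKM. The study's primers for it are shown because both match more than the gene itself, the first on the plus and the second on the minus strand, in lower case throughout.
GAPDH forward primer: ggatattgttgccatcaatgacc
GAPDH reverse primer: agccttctccatggtggtgaaga
On GRCh38 with GENCODE release 29 the forward primer lies at chr12:6536548-6536570 in the coding part of exon 3 and the reverse primer at chr12:6536985-6537007 in the coding part of exon 5 of GAPDH-201, 241 bp from end to end of the spliced product. Transcripts of 6 other genes held the forward primer, all of them GAPDH pseudogenes, and 7 held the reverse primer, 6 of them GAPDH pseudogenes, with 2 genes holding both. In these libraries the 43 GAPDH pseudogene rows together had 51 to 159 reads, 0.0654% to 0.240% of the GAPDH count. Of the genes holding both primers, GAPDHP61 is among these rows and GAPDHP44 is not, so the count does not cover GAPDHP44. An antisense row, ENSG00000269968.1, overlaps 577 bases of GAPDH and had 691, 2417, 2815 and 1442 reads, and whether reads were counted by strand is not given in the sources used here. The spans of 15 of 32 members overlap a row on the opposite strand in the files, as do those of 36.3% of all protein-coding genes.

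Phosphoglycerate mutase moves the phosphate along the 3-carbon chain. PGAM1 (chr10:99185882-99193201, plus strand), the brain and housekeeping form, was at 266, 690.2, 576 and 437 TPM. Its reads can be shared, since 43.3% of its 50-base stretches also occur in transcripts of 10 other genes, AC012085.1, AC078819.1 and PGAM4 among them. PGAM2 (chr7:44102326-44105186, minus strand), the muscle form, was at 0, 19.7, 6.75 and 8.46 TPM. PGAM1 held 98.5% ± 1.17 of the sum, and PGAM2 was counted in replicates 2, 3 and 4, at 112, 52 and 54 reads, and not in replicate 1, the deepest library. In replicate 1 PGAM1 was at least 1848-fold above the floor of 3 counts. The PGAM2 reads need not come from PGAM2, because 88.6% of its 50-base stretches also occur in transcripts of DBNL or AC017116.1, with DBNL on the opposite strand. DBNL had 9794, 2566, 4019 and 3676 reads, and ENSG00000239775.1, which overlaps 680 bases of PGAM2 on the other strand, had 590, 74, 60 and 41. Its reads were highest in replicate 1, where PGAM2 had none, and their part in the PGAM2 level was not tested. The 5 skeletal muscle markers, among them the muscle creatine kinase gene CKM, summed to at most 0.691 TPM in any replicate.

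Enolase makes phosphoenolpyruvate. ENO1 (chr1:8921059-8939151, minus strand), the ubiquitous form, was at 1172, 2209, 1954 and 1409 TPM. ENO2 (chr12:7023614-7032859, plus strand), the neuronal form, was at 8.88, 19.7, 7.21 and 18.9 TPM. ENO3, the muscle form, was at 2.53, 4.04, 1.89 and 2.99 TPM. ENO1 held 99.0% ± 0.437 of the sum, and the order ENO1, ENO2, ENO3 was the same in each replicate. ENO2 was 3.51 to 6.32 times ENO3 per kilobase. The neuronal and muscle isoforms were detected at these low levels, while none of the neuronal and muscle markers was.

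Pyruvate kinase makes the last ATP of the pathway. PKM (chr15:72491370-72523965, minus strand) was at 2930.0, 3433, 3695 and 2733 TPM, rank 32 among protein-coding genes. PKLR, the liver and red cell gene, had 5, 17, 4 and 10 reads, or 0.0650, 0.808, 0.141 and 0.424 TPM. PKM was 4247 to 45053 times PKLR per kilobase and held 99.99% of the sum. PKLR overlaps 556 bases of HCN3 on the opposite strand, which had 107 to 485 reads. The counts are per gene, so the M1 and M2 splice forms of PKM, which differ by an exon, were not separated. GAPDH exceeded PKM in each replicate, by 1.07 to 1.29 times.

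Lactate dehydrogenase is a tetramer of A and B subunits. LDHA (chr11:18415936-18429765, plus strand), the muscle-type subunit that favours lactate formation, was at 741, 1634, 1424 and 1181 TPM. LDHB (chr12:21788276-21810789, minus strand), the heart-type subunit, was at 206, 220.5, 310.0 and 183 TPM. LDHA was the higher in each replicate and held 83.8% ± 4.46 of the sum. The LDHA to LDHB ratio per kilobase was 3.60 (3.52 to 3.69), 7.41 (7.11 to 7.73), 4.60 (4.45 to 4.74) and 6.46 (6.18 to 6.75) in replicates 1 to 4. The 4 intervals did not overlap, so the subunit balance varied beyond counting error while its direction did not change. Reads of LDHB can be shared, since 58.5% of its 50-base stretches also occur in transcripts of AC010197.2 or LDHBP2, and LDHBP2 was counted at 0 in every replicate. LDHC, the testis form, had no count, and 3 counts would correspond to 0.0962 to 0.351 TPM. LDHA was at least 3767-fold and LDHB at least 583-fold above that floor in each library.

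Lactate leaves through monocarboxylate transporters. SLC16A1 (chr1:113454469-113498975, minus strand), which encodes the widely expressed MCT1, was at 92.2, 126, 103 and 83.5 TPM. SLC16A3 (chr17:80186282-80197375, plus strand), which encodes MCT4, the export carrier of strongly glycolytic cells, was at 35.0, 75, 56.8 and 86.1 TPM. SLC16A1 was the higher in replicates 1 to 3 and SLC16A3 by a small margin in replicate 4, so this was the step without a constant leader. The ratio per kilobase was 2.64 (2.52 to 2.77), 1.68 (1.58 to 1.79), 1.82 (1.70 to 1.93) and 0.970 (0.912 to 1.03), and the last interval includes equal levels. The mean difference in log2(TPM + 1) was 0.73 ± 0.59 (exact sign-flip permutation test p = 0.25, n = 4), so the order of these carriers was not settled by the replicates. It also depended on gene length. The deposited length of SLC16A3 was 2482 bases, against 8995 for the union of its exons and 5413 for the exons of its protein-coding transcripts in GENCODE release 29. With either of those lengths or with no length correction SLC16A1 led in all 4 replicates, with a share of 83.6%, 76.7% and 75.3% in place of 62.2%.

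Pyruvate that is not reduced can be oxidized in the mitochondrion by the pyruvate dehydrogenase complex. PDHA1, its catalytic subunit, was at 122, 91.6, 73.1 and 96.4 TPM, and PDK1, a kinase that switches the complex off, at 5.52, 9.53, 4.93 and 6.01 TPM. PDHA1 was 22.1, 9.61, 14.8 and 16 times PDK1. The summed lactate dehydrogenase level was 7.76, 20.2, 23.7 and 14.1 times that of PDHA1, lowest in replicate 1.

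Other genes of the pathway were taken from a list of 29, all found in the files, of which 18 were detected. BSG, the chaperone that brings MCT1 and MCT4 to the plasma membrane, was at 315, 848, 758 and 776 TPM. It exceeded both carriers in each replicate. Its lowest value was in replicate 1, as for SLC16A3 and for 37.4% of all detected genes, while SLC16A1 was lowest in replicate 4. EMB, the other chaperone of this kind, was at 67.2, 21.7, 13.4 and 42.2 TPM. The other monocarboxylate transporter genes of the list, SLC16A7 and SLC16A8, were below the level of detection. ADPGK, which phosphorylates glucose with ADP, was nearly constant at 76.8 to 82.8 TPM, while the hexokinase family gene HKDC1 was not detected. HIF1A, which encodes the oxygen-regulated factor known to drive many glycolysis genes, was at 79.3, 84.8, 31.9 and 106 TPM. Of the other pyruvate dehydrogenase kinases, PDK2 was detected, at a mean of 9.04 TPM, and PDK3 and PDK4 were not. The remaining subunits of the complex, PDHB, PDHX, DLAT and DLD, had means of 49.4 to 61.9 TPM. The phosphatases PDP1 and PDP2 and the regulatory subunit PDPR had means of 59.6, 8.91 and 28.3 TPM, and the mitochondrial pyruvate carrier genes MPC1 and MPC2 had 20.6 and 53.2 TPM. Of the genes that serve side branches, TIGAR was at 4.99 and BPGM at 14 TPM. The sperm form GAPDHS had 0, 49, 17 and 30 reads and LDHD, for D-lactate, 303, 11, 4 and 16.

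The replicates did not share 1 level for the pathway. The highest and lowest replicate were over 2-fold apart in TPM + 1 for 15 of 28 detected members and for 59.1% of all detected protein-coding genes. Among replicates 2 to 4 this held for 6 of 28 members, namely HK2, PFKFB3, PFKL, ALDOC, PGAM2 and ENO2, and for 22.7% of all. The median range in log2(TPM + 1) was 1.01 for the members and 1.16 for all detected genes, and over replicates 2 to 4 it was 0.62 and 0.63. The members' shares and medians thus lay near those of all detected genes. With TPM over protein-coding rows, the narrowest members, with a highest value under 1.5 times the lowest, were TPI1, GAPDH, PGK1, PFKM and PKM.

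Replicate 1 was below all the others for 12 of 28 detected members and for 37.4% of all detected genes. These 12 were HK2, GPI, PFKP, PFKFB3, PFKFB4, ALDOA, GAPDH, PGAM1, PGAM2, ENO1, LDHA and SLC16A3. It was above all the others for 6 of 28 members, SLC2A1, HK1, PFKM, PFKFB2, PGK1 and PDHA1, and for 40.2% of all detected genes. In 3 steps, isoenzymes thus lay on opposite sides in replicate 1, where HK1, PFKM and PFKFB2 had their highest and HK2, PFKP and PFKFB3 their lowest value. At the branch of pyruvate, LDHA had its lowest and PDHA1 its highest value there. Either extreme was common in that library, with 40.2% of all detected genes highest and 37.4% lowest in it. How often other pairs of genes lay on opposite sides was not counted. Replicate 1 minus the mean of the other libraries had a median of -0.22 in log2(TPM + 1) for the members and 0.03 for all detected genes. With TPM scaled over all rows, noncoding ones included, that median of all detected genes shifted to -1.27, and replicate 1 was then below all the others for 28 members and above them for 0. This difference was related to base composition across genes, with a Spearman correlation with GC content of -0.51 over 11889 detected genes and -0.39 over the 28 members, which share the same libraries. HK1 at 53.0% and HK2 at 51.2% GC were close in base composition, whereas PFKM had 52.7% and PFKP 57.5%, and PFKFB2 had 43.5% and PFKFB3 55.7%. The part of GC content, library type and depth in these differences was not tested.

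**Figure D5:**
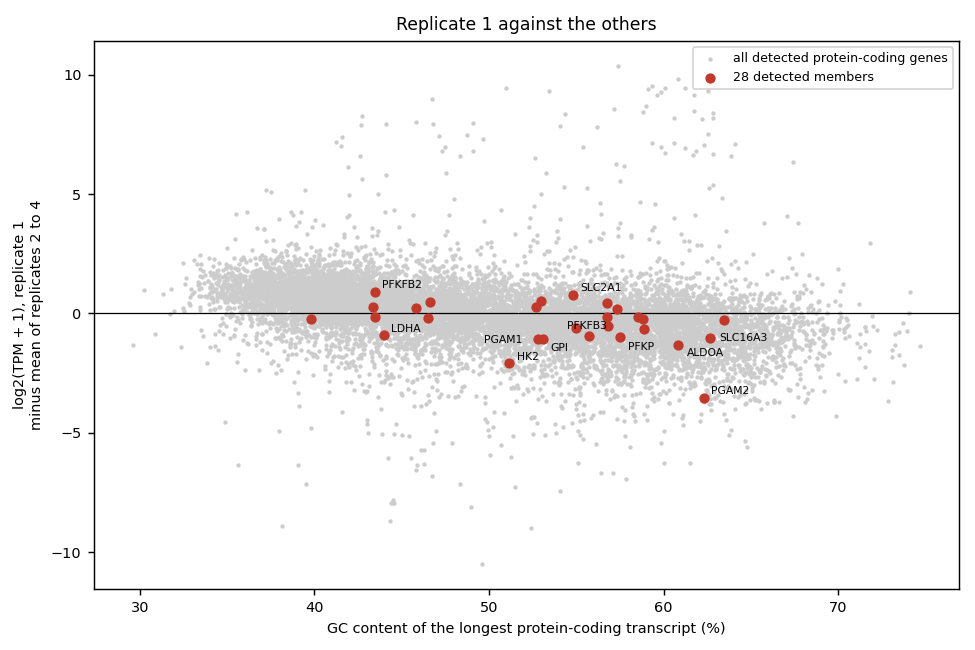
Difference in log2(TPM + 1) between replicate 1 and the mean of replicates 2 to 4 against the GC content of the longest protein-coding transcript, in percent, for all detected protein-coding genes (grey) and the 28 detected members (red, those over 0.75 from 0 named). The cloud falls from left to right, and most members lie below 0, with PGAM2 and HK2 lowest.

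Replicate 2 was the highest for 15 of 28 detected members, against 23.3% of all detected genes, and the lowest for 0 of 28, against 9.47%. Replicate 3 was the lowest for 10 members, against 40.2% of all, and replicate 4 for 6, against 12.9%. The members that peaked in replicate 2 included HK2, GPI, PFKP, PFKFB3, ALDOA, PGAM1, ENO1, LDHA and SLC16A1.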

How the data were processed

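RNA-seq of 4 untreated HaCaT replicates was used, with each sample matched through its label. The authors deposited raw counts per gene with a length and position for 44591 genes, the same in each library. Beside the counts the authors gave RPKM in replicates 1 and 2 and TPM in replicates 3 and 4, which follow from count, length and the sum over all rows. Per the labels' processing notes, HISAT2, HISAT, TopHat2 and Bowtie2 were used with build hg19. The versions, the counting program, the annotation and the strand setting are not given in the sources used here.

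Since the deposited unit differs between replicates, TPM was computed here from counts and deposited lengths over the 19233 protein-coding rows. Isoenzymes of a step were compared within each replicate on the log2(TPM + 1) scale, which understates the differences of low genes, by an exact two-sided sign-flip permutation test with Benjamini-Hochberg adjustment over 23 pairs. When all 4 replicates share a sign, this permutation test gives p = 0.125 whatever their spread. The p-values speak only of these samples. Ratios of reads per kilobase have 95% Clopper-Pearson intervals from the counts. A floor of 3 counts per library was used for genes at 0. Both intervals and floors leave out every error but that of counting, and reads were not collapsed by molecular identifiers. A mean TPM above 1 was called detected. No test of differential expression was run, as there is 1 condition, and no 2 libraries were duplicates (the same count in 0.0493% to 0.608% of detected genes).

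All 32 members are reported, with values per replicate for the steps with isoenzymes and for GAPDH, and other genes come from a list of 29 and marker lists. The members and lists were chosen with earlier results of these data known, and PDHA1 and PDK1 are given per replicate in addition. Sequence sharing was counted as 50-base stretches of the longest protein-coding transcript found in transcripts of other genes of GENCODE release 29 (GRCh38), on either strand. Positions of genes are those of the files (hg19). No protein sequence was used here. The steps were tested on simulated data. The software was R 4.3.3 with edgeR 4.0.16 (scaling factors only) and Python 3.11.15 with SciPy 1.17.1, pandas 2.3.3, NumPy 2.4.6 and matplotlib 3.10.9. The alternatives were TPM over all rows, the values as deposited, pseudocounts of 0.1 and 0, no length correction, other gene lengths, other scalings, pseudogene counts added, other detection limits and leaving out each replicate. Leaving out genes that overlap the opposite strand and pairs with an undetected gene were added after seeing the data.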

Additional observations from a re-analysis of the deposited data

Results flagged for a closer look

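In 3 of 75 sets of 4 replicate values, a replicate lay farther from the rest than a Dixon gap test at the 95% level allows, where chance gives about 3.75 sets, and in each of the 3 it was replicate 1. The TPM of ALDOA was 452 there, against 1083 to 1209.6 elsewhere. PFKM minus PFKP was -1.06 in log2(TPM + 1), against -2.43 to -2.20 elsewhere. The total count was 73082279, against 17056035 to 19745170 elsewhere.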

How the results depend on the processing

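All 294 alternative values of the isoenzyme pair differences kept the direction of their mean, and the isoenzyme with the highest mean of each step was the same under every setting run. With pairs of undetected genes left out, 14 of 15 pairs kept 1 order in every replicate. The share of SLC2A1 became 89.4% with pseudogene counts added. With the union of annotated exons as length the share became 74.2% for PFKP, 99.97% for PKM and 83.6% for SLC16A1, and SLC16A1 had 76.7% with exons of protein-coding transcripts. Without length correction it became 89.1% for LDHA and 75.3% for SLC16A1, and PFKFB3 led PFKFB2 in 3 of 4 replicates. The order of PFKL and PFKM was constant neither there nor with union exons, where their mean difference was 0.10, and 21 pairs kept 1 order without length correction, 22 with union exons and 23 with exons of protein-coding transcripts. With TPM over all rows, 27 members were over 2-fold apart, replicate 1 was above all others for 0 and below them for 28 members. With members overlapping the opposite strand left out, 9 of the 15 remaining detected members were over 2-fold apart. Leaving out each replicate gave 6 to 14 such members, with 6 without replicate 1, and 28 to 29 detected members, 22 to 23 pairs of constant order and 9 to 10 steps with a constant leader, SLC16A1 being constant without replicate 4. No share moved by more than its SD in those settings, and the cause of the other changes was not tested. With 3 replicates the exact permutation test cannot give a p below 0.25. No paired analysis was possible because there is 1 group, so no samples can be paired across groups, and the sign-flip tests pair genes within a replicate. Depth limits the genes near 0: PKLR rested on 4 to 17 reads and PFKFB1 on 6 to 40, while HK3 and LDHC had none.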
